A study of Mus musculus with 6 samples.

Results

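Amino acid and monocarboxylate transporters of the embryonic mouse lens were described in control libraries and in libraries labelled mutant for the Pea3 transcription factors. The genes were chosen by symbol alone, as all members of the solute carrier families Slc1, Slc3, Slc6, Slc7, Slc16, Slc36, Slc38 and Slc43 whose symbol ends in a number, without the cystine carrier gene Slc7a11. This gave 72 genes of the 23420 in the table, of which 37 had enough counts to be tested. The rule itself uses no measured value, but members were chosen with earlier results of these data known.

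RNA sequencing was done on the lens transition zone at E14.5, in 2 groups of 3 libraries from mice of mixed strain background. Control embryos carried the Le-Cre transgene, a driver of Cre recombinase in surface ectoderm, the source of the lens. Embryos labelled mutant carried Le-Cre with Etv4-/-, Etv5 fl/fl and Etv1 fl/fl, so that Etv4 was mutant in every cell and Etv5 and Etv1 could be deleted only where Le-Cre was active. Both groups therefore shared the transgene, and the genotype label of the controls names nothing else. The Pea3 factors Etv1, Etv4 and Etv5 act downstream of fibroblast growth factor signalling, and the comparison asks which genes depend on them. Whether the libraries stem from separate embryos is not in the labels, and p-values therefore measure the spread between libraries alone, which may be technical.

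The lens has no blood vessels inside it, and its cells take up amino acids from the surrounding fluids for protein and glutathione synthesis. Many carriers of the Slc7 family work as light chains bound to a heavy chain of the Slc3 family, and exchange one amino acid for another. Sodium-coupled carriers of the Slc38 family pump glutamine, alanine and other small neutral amino acids into cells. The best known monocarboxylate carriers of the Slc16 family move lactate and pyruvate together with protons and need the chaperones basigin or embigin to reach the cell surface. Lens cells rely much on glycolysis and export lactate. Variants of the human SLC16A12 gene, and loss of Slc7a8 in mice, have been linked to cataract.

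Library totals lay between 13364742 and 17301168 counts, and 1 count stood for 0.0508 to 0.0825 CPM (counts scaled to a common library size with factors for library composition). Of the targeted genes, Etv1 averaged 57.4 CPM ± 12.7 across controls and 26.5 CPM ± 4.25 across mutant libraries, Etv5 196.8 CPM ± 42.3 and 103.5 CPM ± 18.0, and Etv4 2.75 CPM ± 0.562 and 4.28 CPM ± 0.611 (SD, n = 3). Only Etv1 passed an adjusted p under 0.05, and the Etv4 values go against a simple loss of transcript. Counts per gene include exons that an allele may leave in place, so these values alone do not check the labels, and the libraries are called mutant after their labels. Xist had 711 counts and Ddx3y 2 counts in mutant library 1, against at most 3 counts of Xist and at least 521 of Ddx3y in each other library, so this library differed from them in sex. Lens markers were high, with a summed level of 147000 to 332000 CPM for 13 fibre genes and 949 to 2090 CPM for 7 epithelial genes. Summed markers of retina, vessels, macrophages, mesenchyme and surface ectoderm each stayed under 57 CPM in every library, and those of red blood cells lay at 56.1 to 313 CPM. The 6 pigment markers summed to 0.388 to 1.52 CPM in the controls and 1.42 to 2.56 CPM in the mutant libraries, with 2 of them, Tyr among these, at 0. By library number, crystallin genes took 37.6%, 30.2% and 21.8% of counts among controls, against 21.7%, 32.2% and 19.5% among mutant libraries (95% Wilson intervals within 0.025 percentage points, for counting error only). In such bulk tissue, fewer cells of a type and less RNA per cell cannot be told apart.

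The carriers were led by the heteromeric exchanger Slc7a5 with Slc3a2. Slc7a5 encodes LAT1, the light chain that imports leucine and other large neutral amino acids, and Slc3a2 encodes its heavy chain 4F2hc. Per length of exon, Slc7a5 stood at 308, 210.3 and 220.2 CPM per kb in the controls and at 101.1, 218.9 and 105.6 CPM per kb in the mutant libraries. Slc3a2 stood at 234, 162.7 and 157.2 CPM per kb in the controls and at 105.1, 179.2 and 128.8 CPM per kb in the mutant libraries. The control ranges of both genes overlapped, so their order is not settled, and both lay above every other carrier in all 6 libraries. The per-length ratio of Slc7a5 to Slc3a2 was 1.32, 1.29 and 1.40 in the controls and 0.962, 1.22 and 0.820 in the mutant libraries, where the groups did not overlap.

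Next in order per length came Slc38a2 (SNAT2, a sodium-coupled carrier of small neutral amino acids) with a mean over the 6 libraries of 42.2 CPM per kb, Slc16a12 (a carrier linked to creatine) with 32.03, Slc7a8 (LAT2, a light chain for neutral amino acids) with 24.8, Slc38a10 with 21.1 and Slc7a6 with 20.6. From Slc16a12 down to Slc38a1, the 14th in order, each gene's control range overlapped that of its neighbour, so this stretch has no firm order. The control range of Slc38a2 lay apart from those of Slc3a2 and Slc16a12 but overlapped that of Slc7a8, and in mutant library 2 Slc38a2 lay below Slc16a12 (20.8 against 32.8 CPM per kb). By CPM without regard to length, 6 members averaged 100 or more, 15 averaged 10 to under 100, 12 averaged 1 to under 10, 26 were detected under 1 and 13 had no count in any library. Among the members with no count were the neurotransmitter carrier genes Slc6a2 and Slc6a5 and the kidney and gut carrier genes Slc6a19 and Slc7a9.

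**Figure D1:**
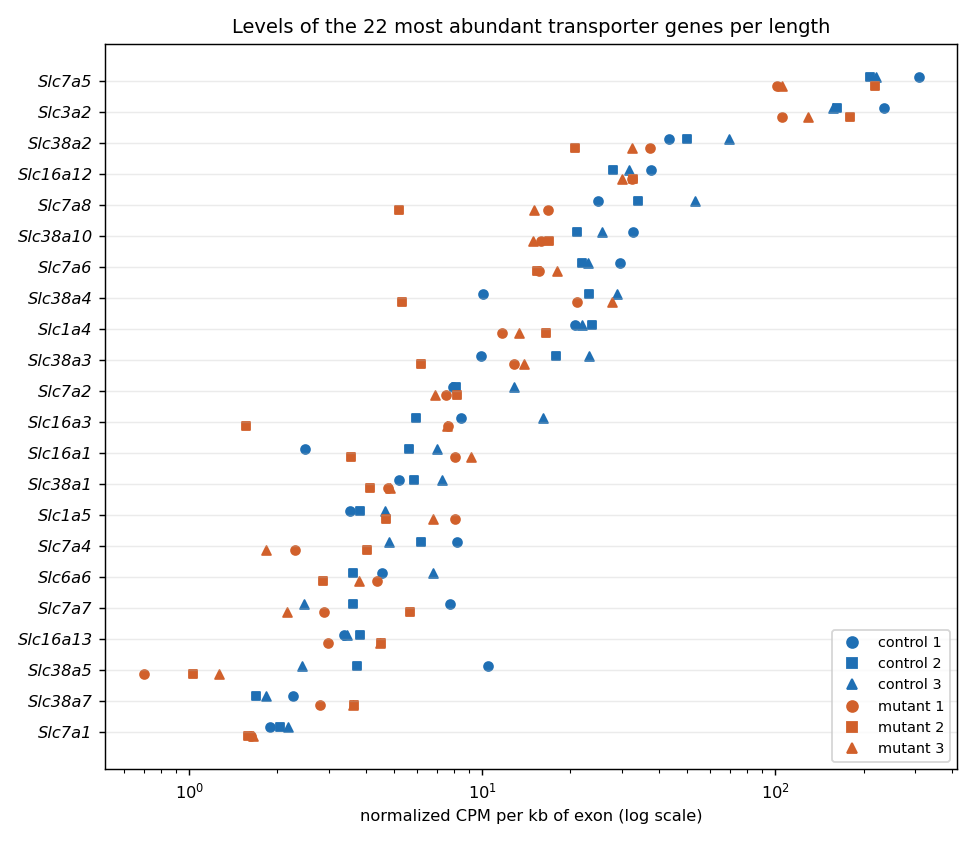
Normalized CPM per kb of exon (x axis, log scale) in each of the 6 libraries for the 22 most abundant carrier genes; blue symbols are control and orange symbols mutant libraries. Slc7a5 and Slc3a2 lie above 100 CPM per kb in every library, and Slc16a12 has its mutant symbols within the range of its control symbols.

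No carrier passed the threshold in the comparison of mutant with control libraries. The quasi-likelihood test of edgeR, adjusted over all 12257 tested genes, called 0 of the 37 tested members, where it called 2.22% of all genes, while 13 members had an unadjusted p under 0.05. These 13 are 35.1% of the tested members, against 16.2% of all tested genes. The groups did not overlap for 14 members, or 37.8%, against 22.7% of all tested genes. Of these 14, 11 were lower and 3 higher in the mutant libraries. The 13, the 14 and the 11 each include Slc1a2, which passed the filter on low counts only through its control values. Log2 fold changes were negative for 24 members and positive for 13, with a median of -0.36, where the median of all tested genes was 0.00. DESeq2, run without the filter on low counts, called 7 of 59 members, all lower, and 6.10% of all genes with an adjusted p. For limma voom, 5 of 37 members were called lower and 1 higher, in a test that called 6.59% of all genes. The authors' deposited table gives an adjusted p under 0.05 to 7 members, all lower in the mutant libraries, and to 833 of the 13644 genes with an adjusted p.

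Summed over all 72 members, carrier transcripts came to 3594, 3033 and 3550 CPM in the controls and 2079, 2435 and 2168 CPM in the mutant libraries. All mutant libraries thus lay below all controls, with a ratio of group means of 0.657. Slc7a5, Slc3a2 and Slc38a2 made up 51.8% to 66.9% of that sum. Without these 3 genes the sum was 1241, 1238 and 1567 CPM in the controls and 1002, 807 and 1036 CPM in the mutant libraries, again with no overlap. Summed lens epithelial markers were at 1690 to 2090 CPM in the controls and 949 to 1540 CPM in the mutant libraries, also without overlap, but Dkk3 carried that sum. The other 6 genes came to 295.8, 723.1 and 995.7 CPM in the controls and 721.3, 386.7 and 723.3 CPM in the mutant libraries, and each of the 7 genes overlapped between groups. Summed fibre markers overlapped, at 152000 to 332000 and 147000 to 276000 CPM. Summed retina and neural markers did not, at 11.2 to 14.3 CPM in the controls and 4.42 to 10.1 CPM in the mutant libraries, with Sox2 at 8.12 CPM ± 1.08 and 2.10 CPM ± 1.596 (SD, n = 3). The other 10 genes of that list overlapped in sum, at 3.58 to 6.88 CPM and 2.59 to 6.76 CPM. Summed macrophage markers overlapped, while Csf1r among them did not (0.941 CPM ± 0.875 and 3.64 CPM ± 2.13). No marker gene was called by edgeR, and the part of a different mix of cells in the carrier values was not tested. The sums themselves are a description.

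**Figure D2:**
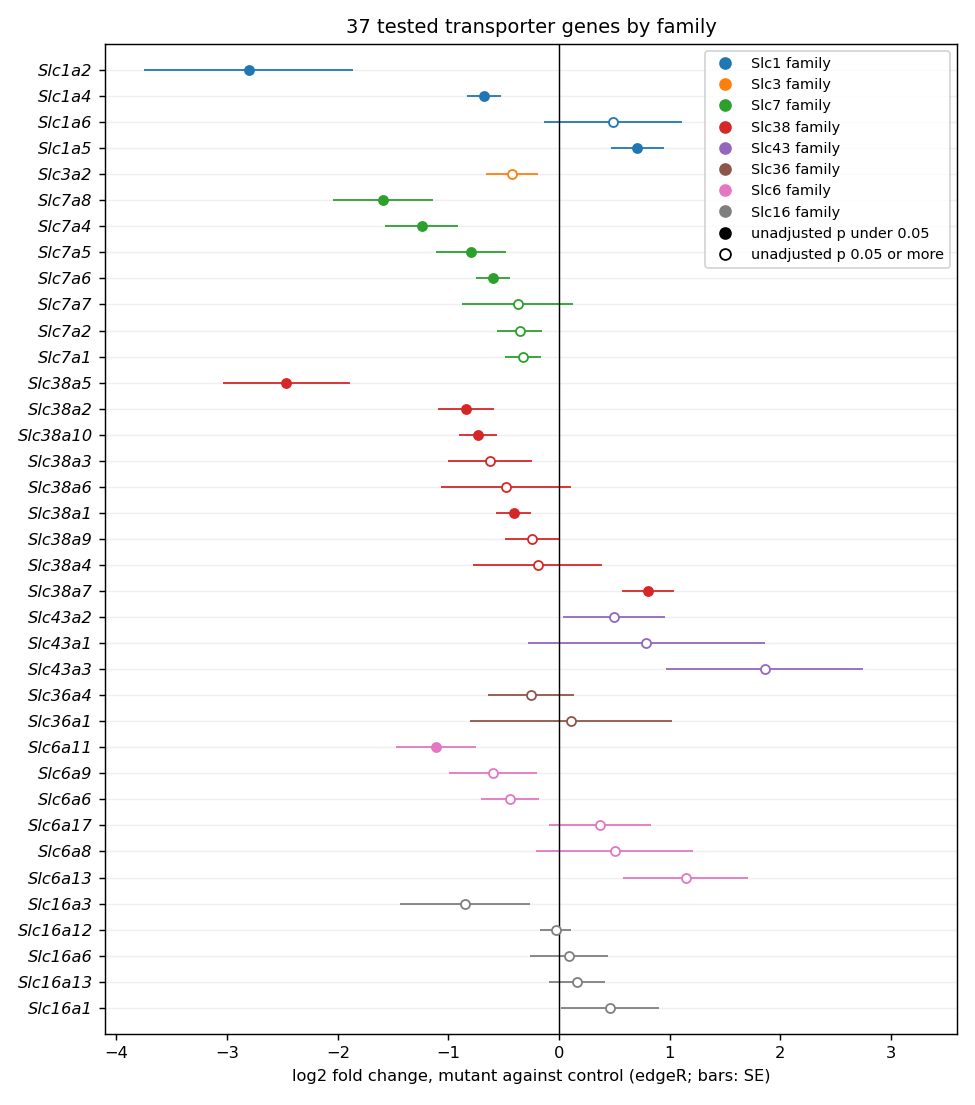
Log2 fold changes of the 37 tested carriers, mutant against control libraries (points, edgeR; bars, SE), in 8 families; filled points have an unadjusted p under 0.05. All 7 Slc7 points and 8 of 9 Slc38 points lie left of 0, and all 3 Slc43 points lie right of it. Slc7a11 is not among the points.

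In the Slc7 family without Slc7a11, which rose, all 7 tested members had negative log2 fold changes (median -0.60), and none passed. Slc7a8 had the most negative of them. Its level was 123.8, 169.8 and 267 CPM in the controls and 83.9, 26.1 and 75.2 CPM in the mutant libraries. Every mutant library lay below every control, and mutant library 2 was the lowest. The group means of 186.9 CPM ± 73.1 and 61.7 CPM ± 31.2 (SD, n = 3) gave a log2 fold change of -1.59 ± 0.45 (SE), at an adjusted p of 0.14 by edgeR. DESeq2 and limma voom called it, with adjusted p of 0.00156 and 0.0405.

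Slc7a5 was at 1144, 780 and 816 CPM in the controls and at 374.7, 812 and 391.6 CPM in the mutant libraries. Mutant libraries 1 and 3 lay well below all controls, whereas mutant library 2 lay among them, so the groups overlapped. The log2 fold change was -0.80 ± 0.32 (SE), at an adjusted p of 0.278 by edgeR. Without mutant library 2 it was -1.25 and passed (edgeR adjusted p = 0.0163). Without any other single library it did not pass, at -0.60 to -0.90. Mutant library 2 also had the highest crystallin share of its group. With that share as a covariate the log2 fold change was -0.57 and did not pass (edgeR adjusted p = 0.0959). The part of the crystallin share in the result was not tested. Slc3a2, for the heavy chain partner of LAT1, averaged 651.6 CPM ± 151 and 486 CPM ± 133 (SD, n = 3), with overlapping groups and a log2 fold change of -0.42 ± 0.23 (SE).

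Slc7a6 encodes y+LAT2, a light chain that exports arginine in exchange for neutral amino acids and sodium. Its values were 135, 100.3 and 104.5 CPM in the controls and 71.6, 70.1 and 82.1 CPM in the mutant libraries. The mutant libraries lay close together and below all controls, with a log2 fold change of -0.60 ± 0.15 (SE), at an adjusted p of 0.0946 by edgeR, and DESeq2 called it (adjusted p = 0.0346). The close relative Slc7a7, encoding y+LAT1 and named after its values were seen, showed no such separation, with 25.7, 11.97 and 8.15 CPM in the controls and 9.59, 18.7 and 7.14 CPM in the mutant libraries. The log2 fold change of -0.37 ± 0.50 (SE) turned sign when control library 1 was left out (0.22).

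Among the cationic carriers, Slc7a4, which resembles arginine carriers but has no settled transport activity, had 34.01, 25.8 and 20.0 CPM in the controls and 9.54, 16.7 and 7.58 CPM in the mutant libraries. The groups did not overlap, and the log2 fold change was -1.24 ± 0.33 (SE) without passing, at an adjusted p of 0.107 by edgeR. Without mutant library 2 it was -1.63 and passed (edgeR adjusted p = 0.0194). Without any other single library it did not pass, at -1.02 to -1.41. The main arginine and lysine carrier gene Slc7a1, named after its values were seen, averaged 23.5 CPM ± 1.75 and 18.7 CPM ± 0.389 (SD, n = 3), a small difference without overlap between groups (log2 fold change -0.33 ± 0.17 (SE)). For Slc7a2, again named after its values were seen, groups overlapped at a log2 fold change of -0.36 ± 0.20 (SE). The family member that the choice left out, Slc7a11, went the other way: it rose, with 10.4 CPM ± 7.66 among controls and 205.8 CPM ± 39.3 among mutant libraries (SD, n = 3), at an edgeR adjusted p of 0.00843, a call that was lost without control library 2 (log2 fold change 4.17 against 4.29). Its protein xCT uses the same heavy chain as LAT1.

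Pea3 factors bind DNA at a GGAA core, and the upstream 250 bases of gene starts were searched for the 7-letter ETS-type word CCGGAAG on both strands. RefSeq windows (GRCm38.p6) were at hand for 26 of the 37 tested members, with 40 starts in all. The word was in 5 of these 40 windows, or 12.5%, and in 6.91% of the 32851 windows of all genes. The members holding it were Slc3a2, Slc7a6, Slc36a4 and Slc38a6, and of these Slc7a6 alone had an unadjusted p under 0.05. They are shown because, among the 26 members searched, they are the ones with this word near a start. Capitals mark each match, read on the gene's strand, at chr19:8714060-8714146 (minus strand), chr8:106168736-106168822, chr9:15709558-15709644 and chr12:73286749-73286835 (plus strand), in this order.
Slc3a2: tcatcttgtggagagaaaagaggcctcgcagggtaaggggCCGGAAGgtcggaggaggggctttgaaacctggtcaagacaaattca
Slc7a6: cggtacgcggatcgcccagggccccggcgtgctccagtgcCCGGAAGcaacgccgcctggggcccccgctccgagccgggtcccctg
Slc36a4: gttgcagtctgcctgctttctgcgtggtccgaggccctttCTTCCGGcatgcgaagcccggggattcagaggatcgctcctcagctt
Slc38a6: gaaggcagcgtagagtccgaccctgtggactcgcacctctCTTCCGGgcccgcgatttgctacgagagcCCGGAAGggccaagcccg
A match describes letters only, and binding was not measured here.

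The Slc38 family had 9 tested members, with 8 negative log2 fold changes and a median of -0.48. Slc38a2, the most abundant of them, was at 383.2, 440.8 and 611.9 CPM in the controls and at 331.3, 183.7 and 285.9 CPM in the mutant libraries. The groups did not overlap, although control library 1 and mutant library 1 lay near each other. Its log2 fold change was -0.84 ± 0.25 (SE), at an adjusted p of 0.154 by edgeR, and DESeq2 called it (adjusted p = 0.0236). Slc38a10, a broadly expressed and little studied member, was at 209.4, 135 and 163.8 CPM in the controls and at 101.8, 108.5 and 95.9 CPM in the mutant libraries. The mutant values were tightly grouped below the controls, with a log2 fold change of -0.73 ± 0.17 (SE), at an adjusted p of 0.0742 by edgeR. This gene was called by edgeR without a filter on low counts (adjusted p = 0.0471) and by DESeq2 (adjusted p = 0.00998).

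Slc38a5 encodes SNAT5, a carrier that exchanges glutamine, serine and glycine for protons. It had 23.4, 8.38 and 5.43 CPM in the controls and 1.57, 2.31 and 2.83 CPM in the mutant libraries. All mutant values were lower than all controls, and control library 1, with the highest crystallin share, stood far above the other controls. The log2 fold change was -2.46 ± 0.57 (SE), at an adjusted p of 0.0765 by edgeR, -1.62 without control library 1 and -2.83 without control library 3, where it passed (edgeR adjusted p = 0.0467). DESeq2 also called it (adjusted p = 0.000305). The gene lies on the X chromosome, and without mutant library 1, the library that differed in sex, it had a log2 fold change of -2.26. Slc38a1, a neuronal and placental type of glutamine importer, averaged 105.2 CPM ± 18.6 and 79.1 CPM ± 6.65 (SD, n = 3) without overlap, with a log2 fold change of -0.41 ± 0.16 (SE) at an adjusted p of 0.248 by edgeR.

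Slc38a7, whose product exports glutamine from lysosomes, had the one positive log2 fold change among the 9 tested members of its family. It had 9.34, 6.99 and 7.59 CPM in the controls and 11.6, 15.1 and 15.04 CPM in the mutant libraries. All mutant libraries were above all controls, and the log2 fold change was 0.80 ± 0.23 (SE) without passing, at an adjusted p of 0.138 by edgeR. The lysosomal arginine sensor gene Slc38a9, named after its values were seen, averaged 11.8 CPM ± 1.96 and 9.98 CPM ± 1.74 (SD, n = 3) with overlap.

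**Figure D3:**
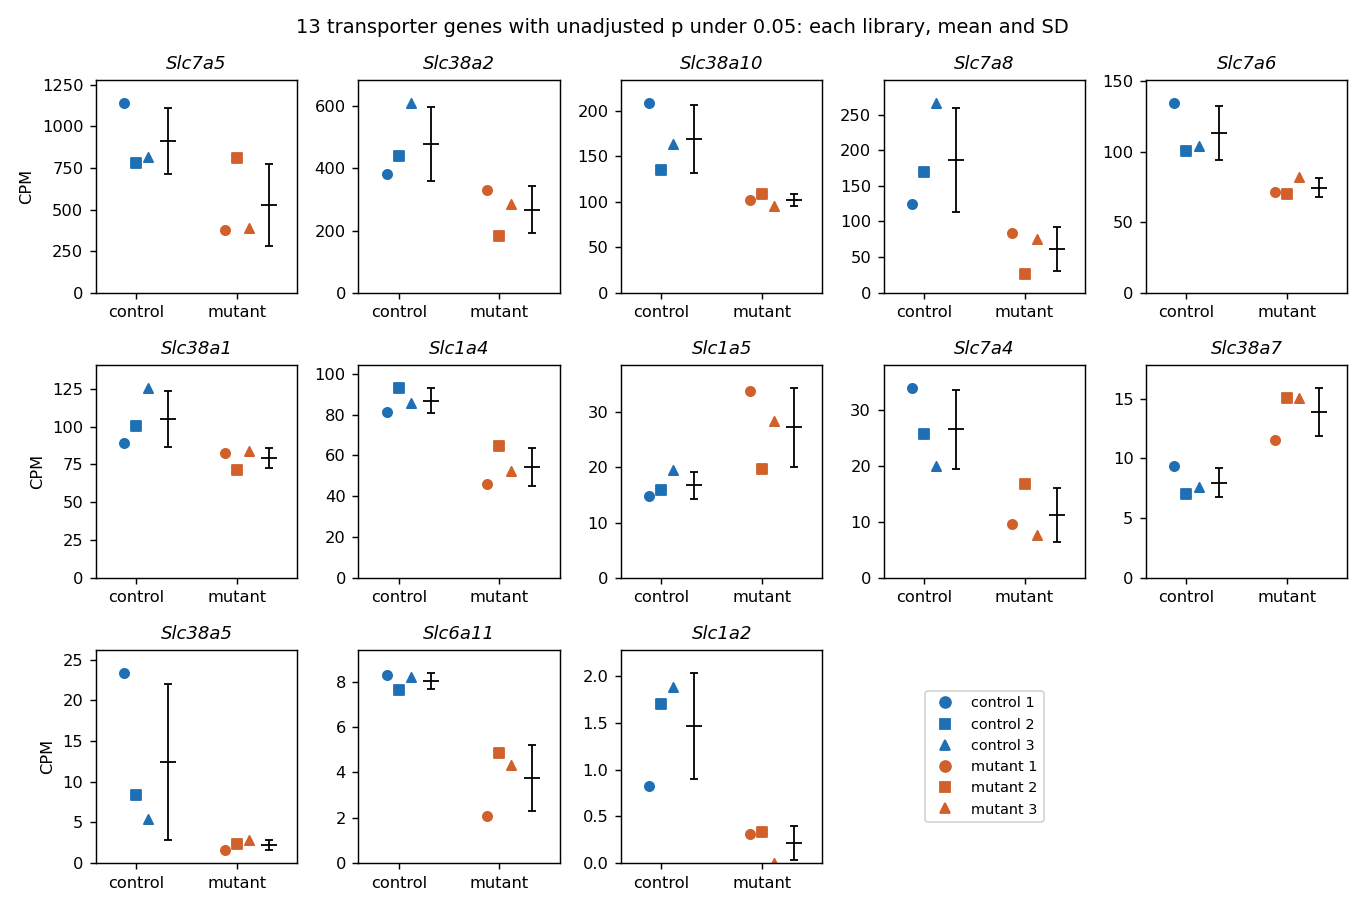
CPM (y axis, from 0) of the 13 carriers with an unadjusted p under 0.05 in each library, with the group mean and SD in black. Slc1a5 and Slc38a7 are higher and the other 11 lower on average in the mutant libraries, and Slc7a5 is the one gene of the 13 whose groups overlap.

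The neutral exchangers Slc1a4 and Slc1a5 of the Slc1 family pointed in opposite directions. Slc1a4 encodes ASCT1, a sodium-dependent exchanger of alanine, serine and cysteine, and had 81.2, 93.2 and 85.9 CPM in the controls and 45.8, 64.6 and 52.4 CPM in the mutant libraries. The controls were close together and all above the mutant libraries, with a log2 fold change of -0.68 ± 0.16 (SE) at an adjusted p of 0.0697 by edgeR, the lowest of the 37 members. It passed without mutant library 2 (log2 fold change -0.82, edgeR adjusted p = 0.0226) and with both DESeq2 and limma voom (adjusted p = 0.0117 and 0.00938). Without any other single library it did not pass in edgeR, at -0.57 to -0.72. Slc1a5 encodes ASCT2, a glutamine exchanger of growing cells, and had 14.7, 15.98 and 19.5 CPM in the controls and 33.8, 19.6 and 28.3 CPM in the mutant libraries. Mutant library 2 lay just above control library 3, so the groups barely separated. The log2 fold change was 0.71 ± 0.24 (SE) without passing, at an adjusted p of 0.19 by edgeR, and limma voom called it (adjusted p = 0.0405).

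Glutamate carriers were scarce. The 2 tested ones had log2 fold changes of opposite sign (-2.81 and 0.49), and neither passed. Slc1a2, the main glial glutamate carrier gene, had 11, 28 and 34 counts in the controls and 6, 4 and 0 counts in the mutant libraries, and passed the filter on low counts through its control values. A count of 0 in mutant library 3 allows up to 0.164 CPM. Its log2 fold change was -2.81 ± 0.94 (SE), at an adjusted p of 0.189 by edgeR. Slc1a1, a neuronal and epithelial glutamate and cysteine carrier gene, had 6, 36 and 30 counts against 8, 2 and 3 and was not tested, because too few libraries reached the minimum count. It was named after its values were seen. Slc1a7 had no count.

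Slc43 carriers were low, and their log2 fold changes were positive in all 3 members without passing. Slc43a3, which carries purine bases, was the farthest from 0, with 1.05, 2.13 and 0.0554 CPM in the controls and 4.97, 2.14 and 4.52 CPM in the mutant libraries. Mutant library 2 lay barely above control library 2, and the log2 fold change was 1.86 ± 0.89 (SE), at an adjusted p of 0.352 by edgeR. It was 2.86 without control library 2 and 1.28 without control library 3, without passing. Slc43a2, which encodes LAT4, averaged 2.86 CPM ± 0.950 and 4.02 CPM ± 1.803 (SD, n = 3), with overlapping groups. Of the proton-coupled Slc36 carriers, which work at lysosomes and the cell surface, Slc36a4 and Slc36a1 had log2 fold changes of -0.25 ± 0.39 and 0.10 ± 0.91 (SE). Slc36a2, named after its values were seen, was not tested and had 0, 0 and 2 counts in the controls and 4, 11 and 11 in the mutant libraries.

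Of the 17 members of the Slc6 family, whose best known products clear neurotransmitters, 6 were tested and none passed. Slc6a6, the taurine carrier gene, was the most abundant, at 38.5, 30.7 and 57.6 CPM in the controls and 36.9, 24.2 and 32.1 CPM in the mutant libraries, with overlap and a log2 fold change of -0.44 ± 0.26 (SE). Slc6a11, a GABA carrier gene, had 8.30, 7.65 and 8.20 CPM in the controls and 2.08, 4.87 and 4.31 CPM in the mutant libraries. The controls were nearly equal and all above the mutant libraries, and the log2 fold change was -1.11 ± 0.36 (SE) without passing, at an adjusted p of 0.179 by edgeR, while limma voom called it (adjusted p = 0.0363). Slc6a13, which carries GABA and taurine, had a log2 fold change of 1.14 ± 0.56 and the glycine carrier gene Slc6a9 one of -0.60 ± 0.40 (SE), both named after their values were seen. The creatine carrier gene Slc6a8, also named after its values were seen, stayed between 0.495 and 4.14 CPM, both of these in mutant libraries.

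For all 5 tested Slc16 members the groups overlapped, and none had an unadjusted p under 0.05. Slc16a12 had 156.9, 116.5 and 131.8 CPM in the controls and 135, 136.7 and 124.5 CPM in the mutant libraries, so that all mutant values lay within the control range. Its log2 fold change was -0.03 ± 0.14 (SE), at an adjusted p of 0.935 by edgeR, and its sign turned under several settings. The lactate exporter gene Slc16a3, encoding MCT4, varied widely, with 45.1, 31.6 and 85.7 CPM in the controls and 40.8, 8.33 and 40.4 CPM in the mutant libraries. Its log2 fold change of -0.85 ± 0.59 (SE), at an adjusted p of 0.529 by edgeR, was -0.42 without mutant library 2 and -0.36 without control library 3. Slc16a1, which encodes MCT1 and was named after its values were seen, averaged 22.3 CPM ± 10.2 and 30.7 CPM ± 13.1 (SD, n = 3), with a log2 fold change of 0.46 ± 0.45 (SE). Of the chaperones, Bsg (basigin) averaged 550.8 CPM ± 70.4 and 475.1 CPM ± 67.5, and Emb (embigin) 86.9 CPM ± 11.5 and 111.6 CPM ± 9.63 (SD, n = 3). The log2 fold changes were -0.21 ± 0.16 for Bsg and 0.36 ± 0.14 for Emb and did not pass (SE; edgeR adjusted p = 0.556 and 0.262), though the Emb values did not overlap between groups.

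Control library 1 and mutant library 2, which had the highest crystallin share of their groups, were both the highest of their group for 9 tested members and both the lowest for 14, together 62.2% of 37, against 43.5% of all tested genes. Members high in both of these libraries included Slc7a5, Slc3a2, Slc7a4 and Slc7a7. Members low in both included Slc7a8, Slc38a1, Slc38a2, Slc38a3, Slc38a4, Slc1a5 and Slc16a1. For Slc38a4, a carrier gene named after its values were seen, the values were 42.7, 98.6 and 122.5 CPM in the controls and 89.4, 22.7 and 118.2 CPM in the mutant libraries, so the spread within groups was far larger than the difference between them. Slc38a3, another glutamine carrier gene named after its values were seen, had 52.3, 94.2 and 121.7 CPM in the controls and 67.9, 32.5 and 73.2 CPM in the mutant libraries. In each group these 2 genes were lowest in the library with most crystallin, the reverse of Slc7a5 and Slc7a7.

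**Figure D4:**
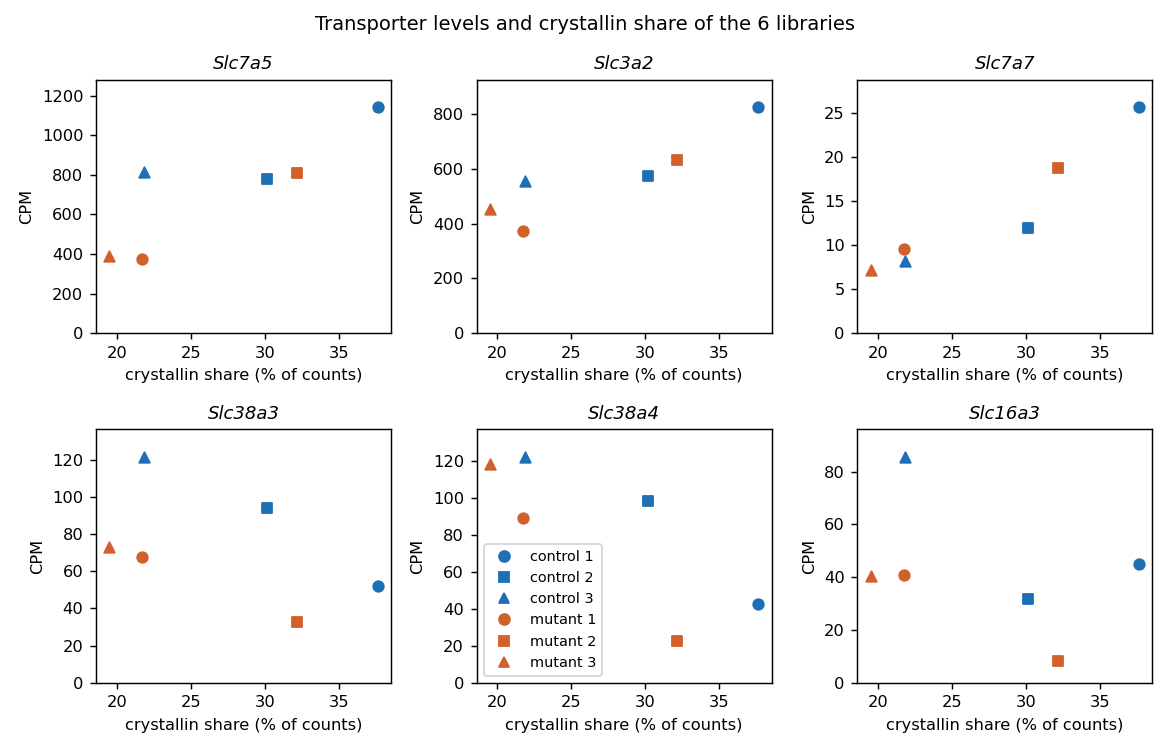
CPM (y axis, from 0) of 6 carriers against the crystallin share of counts (x axis, percent) in the 6 libraries. Slc7a5, Slc3a2 and Slc7a7 are highest in control library 1, at 37.6% crystallin, whereas Slc38a3 and Slc38a4 are lowest in mutant library 2, at 32.2%.

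When the crystallin share entered the edgeR fit as a covariate, 7 members passed, all lower in the mutant libraries, in a fit that called 6.51% of all genes. These were Slc1a4, Slc7a4, Slc7a8, Slc38a1, Slc38a2, Slc38a3 and Slc38a10, and the log2 fold change of Slc7a8 was then -2.18. When control library 1 and mutant library 2 were both left out, an alternative chosen after seeing the data, 8 members passed as lower and 1, Slc1a5, as higher, in a fit that called 8.22% of all genes. Slc7a4, Slc7a8 and Slc1a4 were called in both of these fits and by DESeq2 and limma voom, but not by edgeR on the 6 libraries without a covariate. The crystallin share is itself measured from these libraries, and its part in the differences was not tested.

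**Figure D5:**
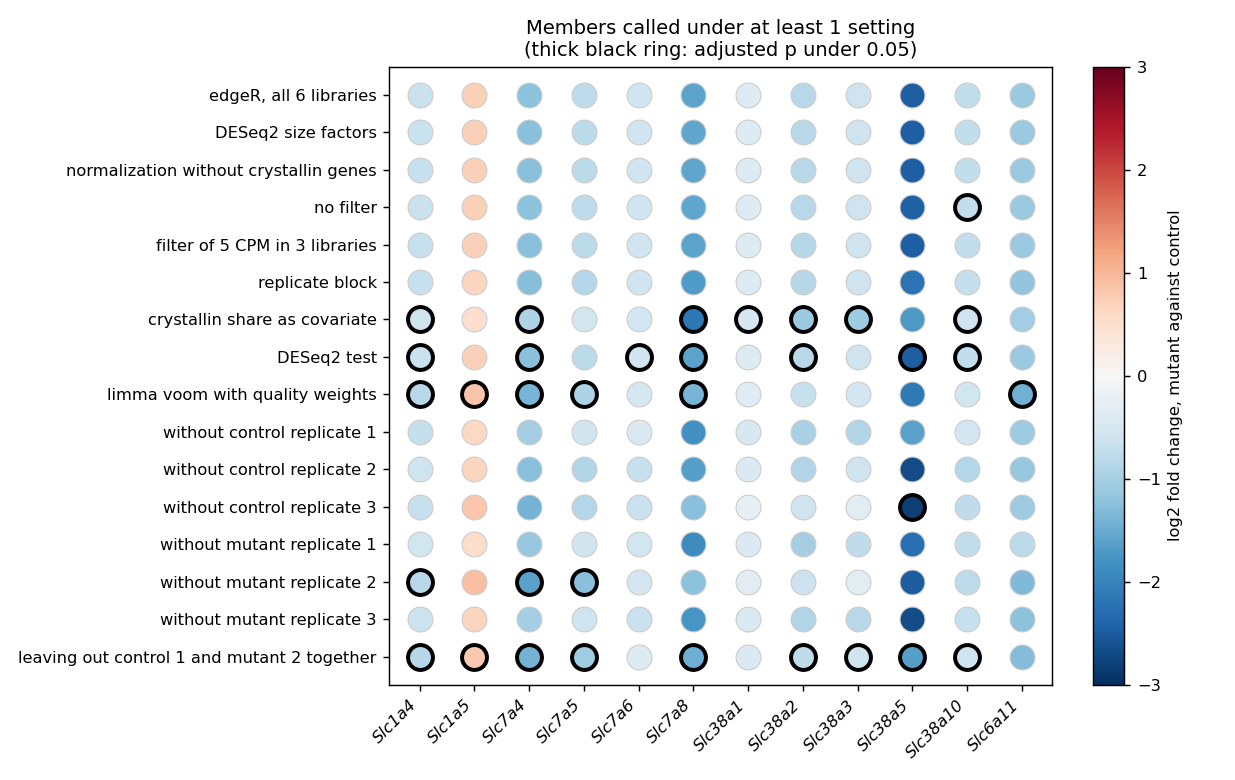
Log2 fold changes (colour) of the 12 carriers that passed an adjusted p under 0.05 (thick black ring) in at least 1 setting; rows are settings and columns are genes. Slc1a5 is the one column with positive values, and no gene has a ring in the first row, the edgeR fit of all 6 libraries.

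The genes around the carriers were taken from 3 lists. Their counts stand beside shares over all tested genes of 2.22% called by edgeR and 16.2% with an unadjusted p under 0.05. Of 18 tested related carriers and partners outside the 8 families or with other symbols, edgeR called 0 (3 had an unadjusted p under 0.05), and Sfxn3 was called by DESeq2 and by limma voom. Sfxn3, a mitochondrial serine carrier gene, averaged 1.84 CPM ± 1.08 and 6.16 CPM ± 1.62, and Slc25a12, a mitochondrial aspartate and glutamate carrier gene, 40.5 CPM ± 7.44 and 28.5 CPM ± 4.63 (SD, n = 3). Of 27 tested enzymes of amino acid and lactate metabolism, 1 was higher and 26 did not pass, with a median log2 fold change of 0.14. This was Gamt, the methyltransferase gene of the last step of creatine synthesis, with 64.6, 76.7 and 57.7 CPM in the controls and 133.3, 210.4 and 163.1 CPM in the mutant libraries. Gamt rose, with a log2 fold change of 1.35 ± 0.19 (SE), at an adjusted p of 0.0108 by edgeR, and without mutant library 3 the call was lost at 1.37. The creatine carrier genes Slc6a8 and Slc16a12 did not pass. Of 28 tested genes of amino acid sensing, Rragd, for a GTPase that brings the mTORC1 kinase complex to lysosomes, averaged 16.9 CPM ± 5.66 and 52.9 CPM ± 2.47, and Mtor, for the kinase itself, 78.3 CPM ± 7.42 and 38.8 CPM ± 2.34 (SD, n = 3). Rragd rose (log2 fold change 1.65 ± 0.23), Mtor fell (log2 fold change -1.01 ± 0.13) and 26 did not pass (SE; edgeR adjusted p = 0.0106 and 0.00803). The Rragd call was lost without control library 2 or mutant library 1 or 3, at log2 fold changes of 1.49, 1.69 and 1.63.

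The remaining 35 members were not tested. Of these, 13 had no count, 12 had between 1 and 10 counts over all libraries, and the others had at most 85. Among them were the aromatic amino acid carrier gene Slc16a10 with 55 counts and the heavy chain gene Slc3a1 with 1. Slc6a15 had 0, 8 and 0 counts in the controls and 35, 1 and 30 in the mutant libraries, and Slc6a3 had 45 counts in mutant library 2 and 0 in mutant libraries 1 and 3, both named, like Slc16a10, after their values were seen. At this depth no test of the difference between groups was made for these genes.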

How the data were processed

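For 6 libraries the authors deposited unnormalized counts by gene symbol, both singly and as a joint table (0 of 23420 genes differed). Per the labels' protocols, RNA was amplified with an ultra-low input SMART-seq type kit, which has no molecular identifiers and does not mark strand, so overlapping genes may share counts. Build mm9 and the tools TopHat, Cufflinks, DESeq and bcl2fastq 1.8.4 stand in the submitters' processing notes, without roles; for read counter and annotation, nothing is given in the sources used here. A comparison that the authors deposited holds log2 fold changes, p-values, a test score and a mean normalized signal, of which log2 fold changes and adjusted p-values were read.

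Counts were fitted with edgeR 4.0.16 in R 4.3.3: filterByExpr (minimum count 10, minimum total 15), TMM factors, robust quasi-likelihood F test without covariates, Benjamini-Hochberg over all 12257 tested genes, threshold 0.05. The fit was tested on simulated counts. At a set log2 fold change of 1 it called 39 of 98 changed genes, and at 2 it called 80 of 95. It made 12 false calls there, and 2 calls where no gene was changed. Standard errors come from the F statistic. DESeq2 1.42.0 and limma 3.58.1 (voom) were alternatives. Exon lengths are unions of GENCODE M21 exons of all transcripts, which may overstate the length in use. Between replicates, chi-square divided by degrees of freedom was 29.8 to 145, above sampling noise.

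Members and lists were chosen with earlier results of these data known. Named members were those with an unadjusted p under 0.05 and the 2 most abundant by CPM in each family; in the lists, called genes, or the 2 of lowest p where none was called, with Bsg and Emb. Other members are stated as named after their values were seen. Exceptions are Slc38a6, shown for its upstream word, and the members with no count, named for that value.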

Additional observations from a re-analysis of the deposited data

How the results depend on the processing

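The number of members called was 0 in the edgeR fit and also with DESeq2 size factors, with normalization without crystallin genes, with a filter of 5 CPM in 3 libraries and with the replicate number as a block. It was 1 without a filter, 7 with crystallin share in the fit, 7 with DESeq2, 6 with limma voom and 9 without control library 1 and mutant library 2, the last chosen after seeing the data; of these, 1, 7, 7, 5 and 8 were lower. Leaving out 1 library at a time gave 0 to 3, all lower. All genes called, 272 in the edgeR fit, were 798, 815, 808 and 1031 under the last 4 of these settings, and 91 to 479 with 1 library left out. Related genes called, 3 in the edgeR fit, were 6 with DESeq2, 5 with limma voom, 6 without both libraries and 1 to 3 with 1 left out. With the replicate number as a block, 0 members, 2 related genes and 122 genes in all were called, and Mtor did not pass (edgeR adjusted p = 0.0533); same-numbered libraries did not deviate together (r = -0.284, -0.147 and 0.219 across genes), and control library 1 correlated best with mutant library 2 (r = 0.408), so the numbers were not taken as pairs.

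Of 31 named members, 24 kept their sign under every alternative they could be fitted in. Slc16a12 was at 0.0373 with the crystallin covariate, 0.0720 with limma voom, 0.0660 without both libraries and -0.13 to 0.0882 with 1 left out. Slc36a1 was at -0.16 with the block, -0.86 with the covariate and -0.56 to 0.82 with 1 left out. With the covariate Slc16a1 was at -0.0765, Slc7a7 at 0.24 and Slc6a8 at -0.21. With 1 library left out Slc36a4 ranged from -0.46 to 0.0816, Slc38a4 from -0.64 to 0.24, Slc7a7 from -0.86 to 0.22 and Slc6a8 from -0.51 to 0.95. The cause was not tested. Depth limits the members under 1 CPM.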
